A study of Mus musculus with 50 samples.

Results

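The interleukin-6 (IL-6) family was described here through 10 genes: the ligands Il6, Il11, Lif and Osm, the receptor subunits Il6ra, Il6st, Osmr and Lifr, the transcription factor Stat3 and its inhibitor Socs3. They were listed by name, and all 10 were found among the 21954 genes of each table. They were followed in the wound bed of amputated mouse digits and in cultured macrophages. At 12 and 24 hours after amputation of non-regenerative digits, the 4 ligands, Osmr, Stat3 and Socs3 were higher than at 0 hours, as were Il6, Osmr, Stat3 and Socs3 at 6 hours, while at 12 and 24 hours Il6ra and Lifr had lower means and Il6st showed no called change. In M1 macrophages, Il6, Lif, Osm, Osmr, Stat3 and Socs3 were higher and Lifr was lower than in M0, and in M2 macrophages Il6, Lif and Il6st were higher and Il6ra and Lifr lower than in M0.

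The digit data came from 41 wound beds of the third hindlimb digit of male C57Bl/6 mice aged 9 to 10 weeks, 1 library per digit, in which the distal terminal phalanx (P3) had been cut. The 29 non-regenerative (NR) digits carried labelled amputation levels of 60 to 80% and covered 9 times, 5 on the first day (0, 3, 6, 12 and 24 hours) and 4 later (day 3, day 7, day 14 and day 21), each in 3 digits except day 7, which had 5. Taking 67% as the level beyond which a digit counts as non-regenerative, 17 of these 29 were labelled above it, 1 at it and 11 below. At 12 hours the digits were labelled 64, 64 and 67%, so none lay above it, and at 0 hours 62, 62 and 75%. The 12 intermediate digits were labelled 41 to 55% and covered 0 hours, 24 hours, day 14 and day 21 in 3 digits each. The 9 macrophage cultures were grown from bone marrow of female C57BL/6 mice aged 6 to 8 weeks: M0 was the baseline, M1 received IFN-γ and LPS, and M2 received IL-4, the last 2 for 24 hours, with 3 libraries each. All animals were of a wild-type strain, no gene was altered, and regenerative digits were not analysed here.

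IL-6 family cytokines signal through receptor complexes that share the subunit gp130, encoded by Il6st. Il6ra binds IL-6, Lifr with gp130 binds LIF, and Osmr with gp130 binds oncostatin M, the product of Osm. Bound receptors activate JAK kinases, which phosphorylate STAT3, and STAT3 induces Socs3, whose product blocks further signalling at gp130. The family is known for driving acute-phase and wound responses in skin and bone, where LIF and oncostatin M also act on osteoblasts and osteoclasts.

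Socs3, Il6 and Lif were each called higher at 12 and 24 hours in NR digits. The 300-base windows around their annotated starts are shown, from 250 bases before to 50 bases after the start. The sequences are from RefSeq on GRCm38.p6, 5′ to 3′ on the strand of the gene, in lower case with motif matches in capitals. The windows are chr11:117969317-117969616 (minus strand) for Socs3, chr5:30012864-30013163 (plus strand) for Il6 and chr11:4257318-4257617 (plus strand) for Lif.
Socs3: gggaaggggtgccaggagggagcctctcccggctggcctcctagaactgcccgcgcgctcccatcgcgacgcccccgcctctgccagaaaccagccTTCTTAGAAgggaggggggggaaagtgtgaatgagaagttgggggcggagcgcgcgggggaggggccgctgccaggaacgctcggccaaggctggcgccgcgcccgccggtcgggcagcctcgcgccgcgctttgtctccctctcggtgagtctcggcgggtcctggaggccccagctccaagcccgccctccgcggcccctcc
Il6: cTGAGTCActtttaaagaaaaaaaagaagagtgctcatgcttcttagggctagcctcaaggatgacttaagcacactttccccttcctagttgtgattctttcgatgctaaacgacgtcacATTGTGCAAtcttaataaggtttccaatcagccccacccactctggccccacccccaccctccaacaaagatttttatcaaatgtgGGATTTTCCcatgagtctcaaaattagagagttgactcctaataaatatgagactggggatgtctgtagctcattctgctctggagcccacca
Lif: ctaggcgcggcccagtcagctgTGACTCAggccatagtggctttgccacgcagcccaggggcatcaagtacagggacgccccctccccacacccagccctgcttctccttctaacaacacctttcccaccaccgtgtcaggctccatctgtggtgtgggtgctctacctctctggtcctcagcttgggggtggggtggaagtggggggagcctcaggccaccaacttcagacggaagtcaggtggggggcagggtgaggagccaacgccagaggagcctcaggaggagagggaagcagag
Capitals in Socs3 mark a STAT motif (TTCNNNGAA) that starts 154 bases before the start. Capitals in Il6 mark, in order, an AP-1 motif (TGANTCA) 249 bases, a C/EBP motif (TTGCNNAAT, read on the opposite strand) 129 bases and an NF-kB motif (GGANTTTCC) 43 bases before the start, none overlapping another. Capitals in Lif mark an AP-1 motif 228 bases before the start.

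Both strands were searched in 32851 promoter windows of the same length, of which 8.30% held the STAT motif, 7.81% the AP-1 motif, 1.25% the NF-kB motif and 2.40% the C/EBP motif. Windows were available for 9 of the 10 members, with none for Osm. The AP-1 motif was found in a window of 4 members, Il6, Il11, Lif and Osmr, and each of the other 3 motifs in 1 member. The windows of Il6ra, Il6st, Lifr and Stat3 held none of these motifs. These matches describe letters in the window only. Binding at them, and any part of theirs in the changes below, was not tested. Osm (chr11:4236420-4241026) and Lif (chr11:4257557-4272514) are neighbours on the plus strand of GRCm38, 16530 bases apart with no protein-coding gene between them. Stat3 overlaps the end of Stat5a on the opposite strand, Il6ra overlaps an antisense transcript, and the other 8 members overlap no annotated gene.

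Between 1468749 and 13011782 expected counts were assigned to genes per digit and between 15683424 and 27904773 per macrophage library. All 5 keratinocyte markers were detected in every digit group, with a summed level of 21196 to 116477, against at most 1.67 in macrophages. The value of 116477 was in a digit of NR 14 days, and the highest in any other digit group was 59745. The 6 macrophage markers summed to 4099 to 6952 in macrophages. Markers of M1 (Nos2, Il12b, Cxcl9) summed to 5811 to 6402 in M1 and at most 27.7 in M2, and markers of M2 (Arg1, Retnla, Chil3) to 2135 to 2643 in M2 and at most 426 in M1. The digit with the fewest counts was NR 3 hours replicate 3. NR 7 days replicate 2 and NR 14 days replicate 2 stood apart from their own groups, and results were also computed without them. In 5 pairs of digits the labels share an animal mark, a date and a side. These are NR 14 days replicate 3 with intermediate 14 days replicate 1, NR 3 days replicate 3 with NR 7 days replicate 1, NR 12 hours replicate 3 with NR 0 hours replicate 1, and the other 2 NR digits at 12 hours with intermediate digits at 0 hours. Whether such digits came from 1 animal is not given in the sources used here.

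Levels are given as normalized TPM, which is corrected for gene length and scaled between libraries, separately for digits and macrophages. Over all genes it summed to 3362791 in NR 14 days replicate 2, against 795701 to 1136073 in digits other than the 2 that stand apart. At 0 hours in NR digits the order of the median levels was Stat3 (69.7), Il6st (31.7), Il6ra (18.7), Socs3 (12.3), Osmr (5.22), Lifr (4.54), Lif (1.85), Il11 (1.68), Il6 (1.06) and Osm (0.659). Ranges over the 3 digits overlapped between Il6ra, Socs3, Osmr and Lifr as neighbours and among the 4 ligands, while Stat3, Il6st and Il6ra did not overlap each other. At 12 hours the order had become Stat3 (190), Socs3 (98.1), Il6 (77.1), Il6st (65.2), Osmr (33.8), Lif (32.0), Osm (24.4), Il6ra (12.3), Il11 (10.1) and Lifr (3.66). The neighbours Socs3, Il6 and Il6st, the neighbours Osmr, Lif and Osm, and the neighbours Il6ra and Il11 then overlapped.

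**Figure D1:**
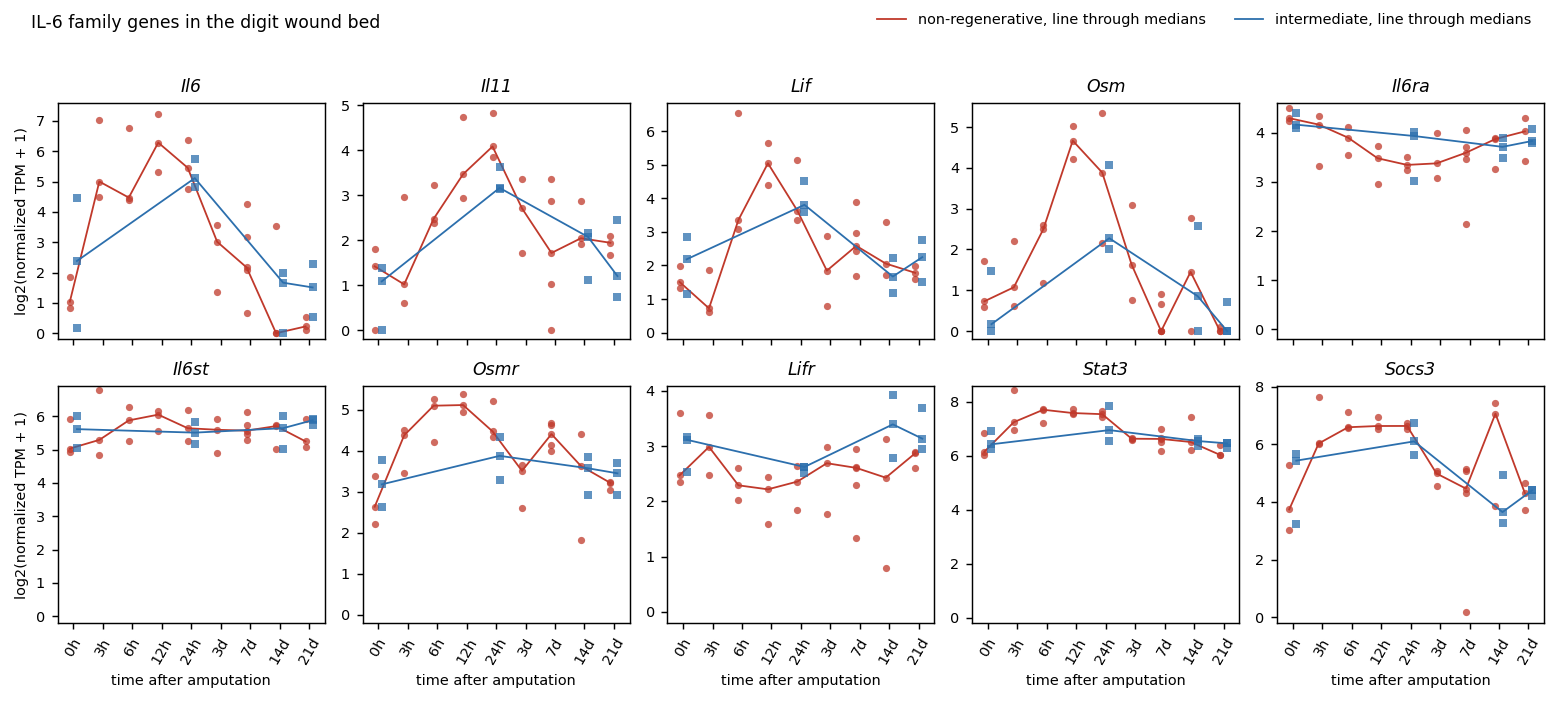
Level of each of the 10 genes in 41 digits, as log2 of normalized TPM plus 1 on the vertical axis against time after amputation on the horizontal axis. Each point is 1 digit, red circles are non-regenerative and blue squares intermediate digits, and lines join the group medians. Il6, Lif and Osm have their highest non-regenerative median at 12 hours and Il11 at 24 hours. The Il6st median is 31.7 at 0 hours and highest at 12 hours, at 65.2, without a called change.

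The ligand Il6, a fever and acute-phase cytokine, stood at 2.65, 1.06 and 0.794 normalized TPM in the 3 NR digits at 0 hours. At 3 hours it stood at 21.7, 31.0 and 130, at 6 hours at 107, 19.9 and 21.2, at 12 hours at 38.5, 77.1 and 151, and at 24 hours at 26.3, 42.9 and 81.5. Every digit from 3 to 24 hours lay above every digit at 0 hours, and the ranges of these 4 times overlapped each other. At 3 days Il6 was at 10.98, 1.55 and 7.08, at 7 days between 0.573 and 18.2 with a median of 3.50, at 14 days at 0, 0 and 10.5, and at 21 days at 0.0659, 0.438 and 0.167. The log2 fold change against 0 hours was 4.72 ± 0.73 (SE) at 3 hours with an edgeR adjusted p of 0.180, 4.44 ± 0.79 at 6 hours with an edgeR adjusted p of 0.0213, and 5.10 ± 0.65 at 12 hours with an edgeR adjusted p of 0.00259. At 24 hours it was 4.67 ± 0.56 with an edgeR adjusted p of 0.00189.

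Lif, which is known for its action on bone cells and stem cells, was at 2.99, 1.85 and 1.51 at 0 hours and at 0.650, 2.62 and 0.531 at 3 hours. At 6 hours 1 digit reached 93.2 while the other two were at 7.50 and 9.26. At 12 hours Lif was at 19.9, 32.0 and 49.3 and at 24 hours at 9.29, 11.4 and 34.1, all above the 0-hour digits. Lif rose at 12 hours, by a log2 fold change of 4.14 ± 0.42 (SE; edgeR adjusted p = 0.00110), and at 24 hours, by 3.24 ± 0.56 (edgeR adjusted p = 0.00739). At 6 hours its log2 fold change of 4.23 ± 1.03 did not pass (edgeR adjusted p = 0.0506).

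Osm, an inflammatory cytokine made mainly by myeloid cells, was at 2.30, 0.659 and 0.503 at 0 hours. It was at 0.543, 1.10 and 3.58 at 3 hours, at 5.11, 4.63 and 1.28 at 6 hours, at 24.4, 17.5 and 31.8 at 12 hours and at 13.8, 3.47 and 39.3 at 24 hours. The groups overlapped with 0 hours up to 6 hours and no longer at 12 and 24 hours. Osm rose by a log2 fold change of 4.79 ± 0.66 (SE; edgeR adjusted p = 0.00349) at 12 hours and of 4.39 ± 1.04 (edgeR adjusted p = 0.0240) at 24 hours. Il11, a cytokine linked to stromal and bone cells, was at 0, 2.51 and 1.68 at 0 hours, at 6.69, 10.1 and 25.8 at 12 hours and at 13.3, 15.97 and 27.2 at 24 hours. Its log2 fold change was 3.17 ± 0.85 at 12 hours (edgeR adjusted p = 0.0360) and 3.42 ± 0.71 at 24 hours (edgeR adjusted p = 0.0156).

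Markers of several cell types changed level over the same hours. The 6 listed markers, S100a8, S100a9, Csf3r, Cxcr2, Retnlg and Mmp8, summed to 20.4 to 25.2 normalized TPM at 0 hours, 16.04 to 104 at 3 hours, 185 to 252 at 6 hours, 408 to 1138 at 12 hours and 1134 to 1299 at 24 hours in NR digits. At 3 hours Mmp8 was at 0 in all 3 digits, and at the other times of the first day none of the 6 was at 0 in every digit. At 3 days the sum was still 644 to 1110 while Il6 was at 1.55 to 10.98. In cultured macrophages the same 6 markers summed to 369 to 383 in M0, 158 to 192 in M1 and 415 to 469 in M2. These values are on the macrophage scale, and the list, drawn up for neutrophils, is not particular to them here. The 6 macrophage markers summed to 60.3 to 91.3 at 0 hours and to 37.5 to 90.9 at 24 hours. The 5 fibroblast markers summed to 824 to 1701 at 0 hours and to 338 to 818 at 24 hours, and the 4 osteoclast markers to 29.2 to 70.3 and to 121 to 253. Over the 41 digits the rank correlation of Il6 was 0.485 with the neutrophil sum, -0.63 with the fibroblast sum and -0.42 with the osteoclast sum. That of Osm was 0.642, -0.48 and -0.25 in the same order. With the macrophage sum the correlation was -0.31 for Il6 and -0.20 for Osm. The part of these cells in the ligand levels was not tested, and in bulk samples fewer cells of a type and less RNA per cell cannot be told apart.

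Among the receptor subunits, Osmr was the one that rose. It was at 9.39, 5.22 and 3.66 at 0 hours, 9.93, 21.7 and 19.8 at 3 hours, 37.5, 33.4 and 17.6 at 6 hours, 29.8, 33.8 and 41.1 at 12 hours and 21.3, 19.4 and 36.2 at 24 hours. From 3 hours on no digit of the first day lay below the highest 0-hour digit. The log2 fold change was 2.33 ± 0.44 (SE; edgeR adjusted p = 0.0253) at 6 hours, 2.47 ± 0.34 (edgeR adjusted p = 0.00328) at 12 hours and 2.19 ± 0.38 (edgeR adjusted p = 0.00767) at 24 hours. By normalized TPM, Osmr in the 5 digits at 7 days was at 15.1 to 24.4 with a median of 20.3, above all 3 digits at 0 hours, but its log2 fold change of 1.014 ± 0.55 did not pass (edgeR adjusted p = 0.999).

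Il6ra, the IL-6 binding subunit, was at 21.6, 18.7 and 18.0 at 0 hours and at 8.52, 10.4 and 9.17 at 24 hours, with no overlap. Its log2 fold changes of -0.82 ± 0.18 (SE) at 12 hours and -0.77 ± 0.18 at 24 hours had edgeR adjusted p values of 0.0172 and 0.0237 but lay within the 2-fold limit. Lifr, the LIF-binding subunit, was at 11.1, 4.13 and 4.54 at 0 hours and at 2.002, 3.66 and 4.41 at 12 hours. Its log2 fold change of -0.93 ± 0.46 at 12 hours did not pass (edgeR adjusted p = 0.186). Il6st, the subunit all these receptors share, was at 59.4, 29.7 and 31.7 at 0 hours, 45.8, 65.2 and 69.8 at 12 hours and 48.9, 37.2 and 72.3 at 24 hours, with overlap throughout. Its log2 fold change at 24 hours was 0.28 ± 0.24 (edgeR adjusted p = 0.440).

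The balance between Osmr and Lifr, taken as the ratio of their normalized TPM within a digit, is given as a description. It ran from 0.805 to 1.26 at 0 hours, from 2.0113 to 2.86 at 3 hours, from 5.76 to 9.63 at 6 hours, from 9.23 to 14.9 at 12 hours and from 5.15 to 7.44 at 24 hours in NR digits. At 3 days it ran from 1.66 to 2.119, at 7 days from 2.49 to 15.4 with a median of 3.90, at 14 days from 1.47 to 4.65 and at 21 days from 1.31 to 1.41. On this scale the ranges of all later times lay above the 0-hour range, and the range of 6 hours overlapped those of 12 and 24 hours. The value of 15.4 at 7 days belongs to the digit that stands apart. By CPM the 3-hour range overlapped that of 0 hours. NR 3 hours replicate 2 held Osmr at 20.0 and Lifr at 32.1 CPM, and NR 0 hours replicate 2 at 12.7 and 19.7. In intermediate digits the ratio ran from 1.02 to 1.64 at 0 hours and from 1.68 to 3.70 at 24 hours.

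**Figure D2:**
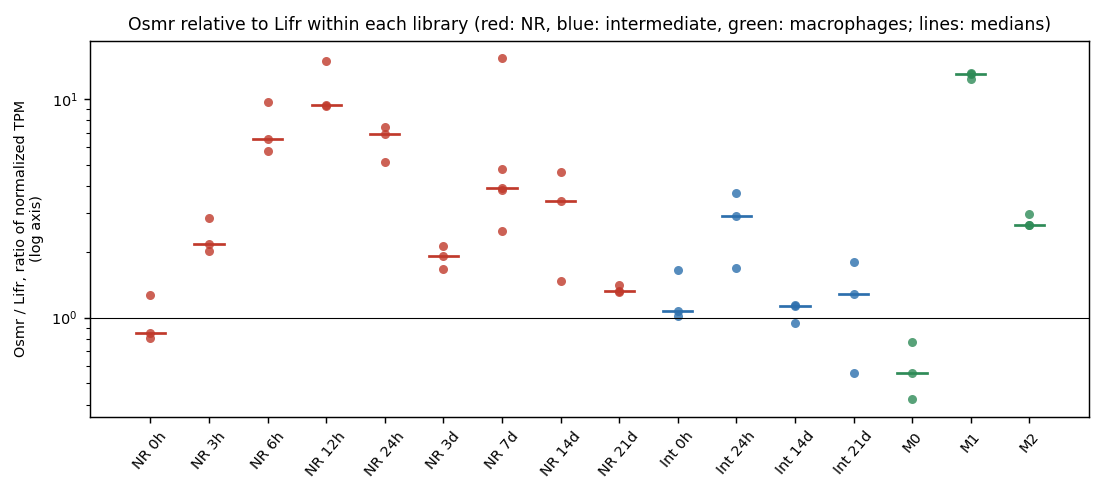
Ratio of Osmr to Lifr normalized TPM (vertical log axis) in each library, by group on the horizontal axis. Points are libraries, short lines are group medians, and the black line marks equal levels. The ratio lies above 5 in all NR digits at 6, 12 and 24 hours and above 12 in the 3 M1 libraries.

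Stat3, the transcription factor of the pathway, was at 115, 64.1 and 69.7 at 0 hours. It was at 150, 123 and 347 at 3 hours, 212, 207 and 146 at 6 hours, 183, 190 and 210 at 12 hours and 198, 184 and 172 at 24 hours, each above every 0-hour digit on this scale. By CPM, NR 3 hours replicates 1 and 2 (154 and 156) lay below NR 0 hours replicate 1 (171). At 3 days all 3 digits lay between 95.4 and 99.7. Stat3 rose by a log2 fold change of 1.43 ± 0.21 (SE; edgeR adjusted p = 0.0123) at 6 hours, 1.34 ± 0.18 (edgeR adjusted p = 0.00327) at 12 hours and 1.39 ± 0.18 (edgeR adjusted p = 0.00272) at 24 hours. At 12 and 24 hours the call held under each of the 12 alternatives run per time.

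Socs3, the feedback inhibitor, was at 38.2, 12.3 and 7.10 at 0 hours, 64.1, 63.1 and 198 at 3 hours, 138, 95.2 and 93.8 at 6 hours, 91.4, 98.1 and 122 at 12 hours and 98.2, 91.2 and 105 at 24 hours. The first-day digits lay above all 0-hour digits, and at 3 days (22.3 to 32.6) the groups overlapped. Socs3 rose by a log2 fold change of 2.58 ± 0.55 (SE; edgeR adjusted p = 0.0355) at 6 hours, 2.52 ± 0.53 (edgeR adjusted p = 0.0158) at 12 hours and 2.41 ± 0.52 (edgeR adjusted p = 0.0170) at 24 hours. At 14 days the 3 digits stood at 13.6, 171 and 132, and by CPM at 21.4, 92.9 and 196. The NR median was highest at 14 days by normalized TPM (132) and at 12 hours by CPM (149). The digit at 171 stands apart from its group, and the one at 132 shares its mark, date and side with an intermediate digit. At 7 days the digit that stands apart held Socs3 at 0.129 and the other 4 at 18.6 to 33.9.

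**Figure D3:**
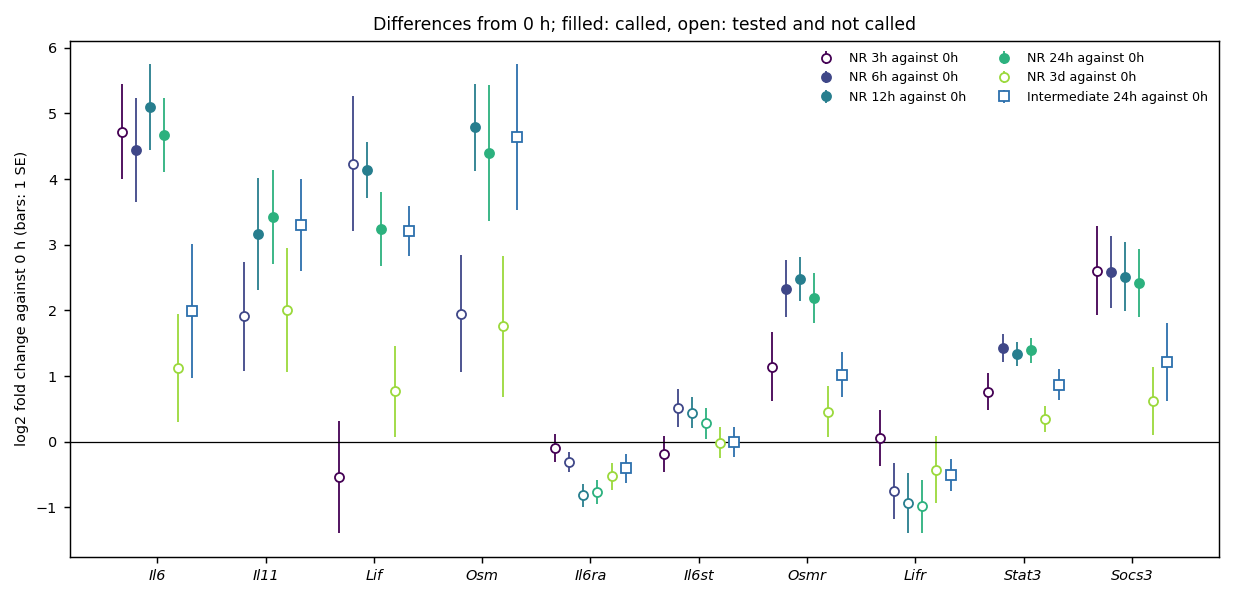
Log2 fold change against 0 hours of the same group (vertical axis; bars are 1 SE) for each member, at 5 NR times and in intermediate digits at 24 hours. Filled symbols passed both limits and open symbols were tested and did not; Il11 and Osm were not tested at 3 hours. The 4 ligands, Osmr, Stat3 and Socs3 lie above 0 at 12 and 24 hours, and Il6ra and Lifr below.

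Counted by time, none of the 8 members tested at 3 hours was called, with 3 (Il6, Stat3 and Socs3) at an unadjusted p under 0.05 in edgeR, and DESeq2 called 2, Il6 and Socs3. Of all genes tested, 0% were called there. At 6 hours 4 of 10 were called higher (Il6, Osmr, Stat3 and Socs3), against 4.85% of all genes tested called in either direction. At 12 hours 7 of 10 were called higher (the 4 ligands, Osmr, Stat3 and Socs3), against 11.4%, and at 24 hours the same 7, against 10.7%. The median log2 fold change of the 10 members was 1.93, 2.495 and 2.30 at these 3 times, and over all genes tested -0.03, -0.03 and -0.04. These comparisons share the 3 digits at 0 hours. Of the pair of digits that share a label between 0 and 12 hours, leaving out NR 0 hours replicate 1 left 7 members called at 12 hours, and leaving out NR 12 hours replicate 3 left 5, without Il11 and Socs3.

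The calls at 6 hours rest on those digits. Without NR 0 hours replicate 2 or replicate 3, no member was called, and without NR 6 hours replicate 2, 2 were called, Il6 and Stat3. When all 41 digits were fitted at once, 3 members were called at 6 hours (Lif, Osmr and Stat3), 4 at 12 hours (Il6, Lif, Osmr and Stat3) and 3 at 24 hours (Lif, Osmr and Stat3).

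No member was called at 3, 7, 14 or 21 days, by edgeR or DESeq2. At an unadjusted p under 0.05 edgeR gave 1 member at 3 days, Il6ra, and 0 at each of 7, 14 and 21 days. In edgeR all genes were called at a share of 0.723% on day 3, 0.0537% on day 7, 0% on day 14 and 0.452% on day 21, which is 96, 7, 0 and 62 genes, where DESeq2 called 450, 161, 354 and 252. Without NR 14 days replicate 2, edgeR called 271 genes on day 14, and without NR 7 days replicate 2 it called 78 on day 7, with no member in either. Without NR 3 days replicate 2 it called 203 on day 3, again with no member. At 21 days Osm was at 0.0659, 0 and 0, and neither Osm nor Il6 passed the filter on low counts.

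Across the whole NR time course, an edgeR F test over the 9 times called 6 members against 7.62% of all genes: Il6 (edgeR adjusted p = 0.000258), Lif (0.000342), Osm (0.000456), Stat3 (0.000615), Osmr (0.0143) and Socs3 (0.0208). Il11 missed the threshold (edgeR adjusted p = 0.195), as did Il6ra (0.598), Il6st (0.811) and Lifr (0.893). The same 6 were called without each of the 29 digits in turn, without the digits that stand apart, without all 14-day digits and with the labelled date period in the model, and DESeq2 called Il11 besides. The number of all genes called was less steady, at 1100 in the full set, 2073 without NR 7 days replicate 2, 1630 without NR 14 days replicate 2, 1765 without NR 14 days replicate 3, 1910 without NR 14 days replicate 1 and 3003 without the 2 digits that stand apart.

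The labelled dates of the digits fall into an earlier period (July and August) and a later one (November to January), and the level at 0 hours differed between them. Over both groups, the 3 earlier digits at 0 hours held Socs3 at 38.2 to 49.9 and the 3 later ones at 7.10 to 12.3. Il6 ran from 2.65 to 20.8 in the earlier and from 0.115 to 1.06 in the later digits, Lif from 2.99 to 6.24 and from 1.21 to 1.85, and Il6st from 48.0 to 63.5 and from 29.7 to 32.2. Osmr and Lifr did not overlap between the periods either, while Il11, Osm, Il6ra and Stat3 did. No test was made on these 6 digits, and the share of all genes without overlap between the periods was not counted.

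**Figure D4:**
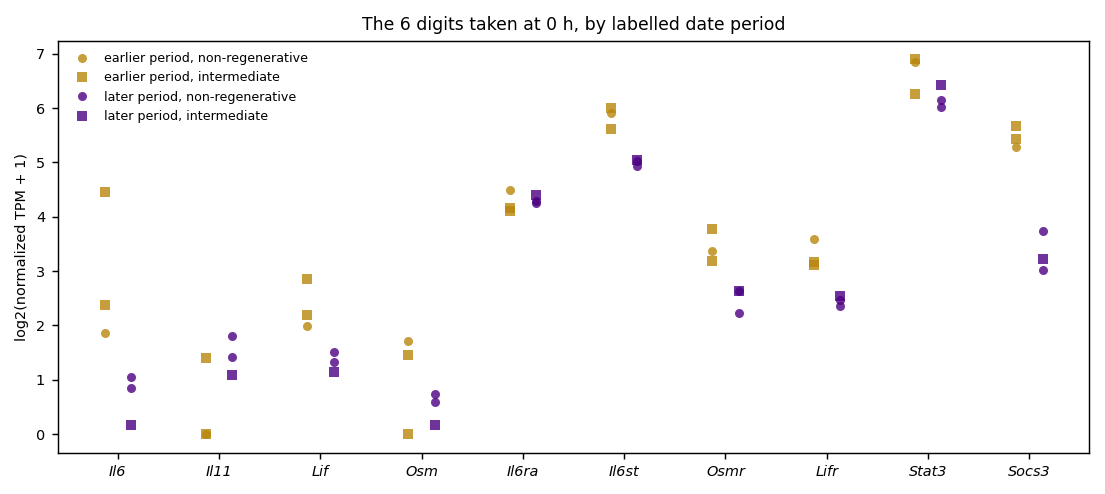
Level of the 10 genes as log2 of normalized TPM plus 1 (vertical axis) in the 6 digits at 0 hours, split by labelled date period. Circles are non-regenerative and squares intermediate digits. Socs3, Il6, Lif, Il6st, Osmr and Lifr lie higher in all 3 earlier digits than in the 3 later ones.

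Within periods, the differences of the 4 ligands, Osmr, Stat3 and Socs3 at 6, 12 and 24 hours were above 0 in NR digits wherever a period held digits of both times. On the scale of log2 of normalized TPM plus 1, Socs3 at 24 hours differed from 0 hours by 1.39 within the earlier period (2 digits against 1) and by 3.15 within the later (1 against 2). Il6 differed by 3.70 and 4.51 in the same digits, Stat3 by 0.68 and 1.45, Osmr by 1.47 and 1.92, Lif by 2.25 and 2.22 and Osm by 2.89 and 1.4999. At 12 hours all 3 digits were of the earlier period, in which Il6 differed by 4.41, Lif by 3.03 and Socs3 by 1.41 from the single 0-hour digit. With the period as a term in the fit of all 41 digits, the log2 fold change at 12 hours was 4.83 for Il6 (edgeR adjusted p = 0.0492) and 2.35 for Socs3 (edgeR adjusted p = 0.127). The part of the period in these results beyond this was not tested.

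Intermediate digits were compared with their own 0-hour digits to ask whether the family responds at a lower amputation level. At 0 hours Il6 was at 0.115, 20.8 and 4.21 and at 24 hours at 52.7, 33.6 and 27.0. Lif was at 1.21, 6.24 and 3.54 and then at 22.0, 11.05 and 13.01, and Osm at 0.125, 0 and 1.76 and then at 15.9, 3.06 and 3.84. Il11 was at 1.123, 1.62 and 0 and then at 11.3, 7.97 and 7.83. For all 4 ligands each 24-hour digit lay above each 0-hour digit, and the share of all genes without overlap between these digits was not counted. The log2 fold change was 1.99 ± 1.02 (SE) for Il6, 3.21 ± 0.38 for Lif, 4.64 ± 1.1 for Osm and 3.30 ± 0.70 for Il11, with edgeR adjusted p values of 0.383, 0.0783, 0.139 and 0.1196.

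None of the 10 members was called in edgeR at 24 hours, against 0.0152% of all genes in edgeR (2 genes), a number that was 36 without intermediate 24 hours replicate 1, 37 without replicate 2 and 350 with DESeq2. At an unadjusted p under 0.05 there were 5 (Il11, Lif, Osm, Osmr and Stat3), and DESeq2 called Il11, Lif and Osm. At 14 and 21 days no member was called by either tool, with 1 (Il6ra) and 2 (Il6 and Lif) at an unadjusted p under 0.05 in edgeR, against 1.68% and 1.39% of all genes called. Without intermediate 0 hours replicate 1, Il6 and Socs3 were called lower at 21 days. That replicate was the only digit of the later date period in this comparison. The F test over the 4 intermediate times called 3 members against 6.21% of all genes: Lif (edgeR adjusted p = 0.00186), Il6 (0.0316) and Stat3 (0.0354). Lif held when each digit was left out in turn, whereas the total ran from 1 to 5. The total was 5 without intermediate 14 days replicate 1, and 1 (Lif) without 14 days replicate 3, any of the 3 digits at 21 days, or 24 hours replicate 1 or replicate 3.

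Set directly against NR digits at the same time, the family differed in no called gene at 0, 24 hours, 14 or 21 days, by edgeR or DESeq2. Of all genes, edgeR called 0%, 0%, 0% and 0.648% (89 genes) at these times, and DESeq2 called 17, 155, 0 and 204 genes. Without intermediate 24 hours replicate 1, edgeR called 653 genes at 24 hours, none of them a member. At 24 hours Il11 was at 7.83 to 11.3 in intermediate and 13.3 to 27.2 in NR digits, with no overlap and a log2 difference of -0.88 ± 0.30 (SE; edgeR adjusted p = 0.386). Osmr differed by -0.84 ± 0.34 (edgeR adjusted p = 0.421) and Lifr by 0.59 ± 0.22 (edgeR adjusted p = 0.393) at that time. By normalized TPM the groups overlapped in Lifr and not in Osmr, and by CPM in Osmr and not in Lifr. Osmr was at 58.8 CPM in intermediate replicate 1 and 52.9 in NR replicate 2. These 3 had unadjusted p values under 0.05, as did Socs3 at 14 days and Lifr at 21 days. Lifr at 21 days was at 7.79, 11.9 and 6.69 in intermediate digits and at 6.41, 5.11 and 6.32 in NR digits. The log2 difference was 0.71 ± 0.21 (edgeR adjusted p = 0.190). At 21 days all intermediate digits were of the earlier period and all NR digits of the later, so group and period cannot be told apart. This holds for Lifr and for the 89 genes called. At 0 hours Lifr ran from 7.68 to 11.1 in the earlier and from 4.13 to 4.82 in the later digits.

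Over the 4 shared times together, neither the group term nor the interaction of group and time called a member or any other gene in edgeR (0% for both), while DESeq2 called 3 genes for the interaction and edgeR 1 gene for the group term without the 14-day digits. In edgeR 0 members had an unadjusted p under 0.05 for the group term and 1, Socs3, for the interaction (edgeR adjusted p = 0.660), and DESeq2 called none in either. Socs3 at 14 days, where the NR digits included the one that stands apart, enters that term.

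In macrophages the spread between the 3 libraries of a state was small, and the level of each member is given in normalized TPM on the scale of the macrophage table. Il6 was at 0.140, 0.0944 and 0.0894 in M0, at 151, 173 and 154 in M1 and at 1.99, 1.96 and 0.982 in M2. Only 5 counts of Il6 were seen over the 3 M0 libraries, against 4163 in M1 and 69 in M2. The ratio of count rates was 873 for M1 to M0 (95% counting interval 374 to 2691) and 13.6 for M2 to M0 (5.54 to 43.1), covering counting error only. Both were called higher in edgeR (adjusted p = 4.09e-14 and 7.83e-05), and the groups did not overlap in either state.

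Lif was at 0.895, 1.52 and 1.008 in M0, at 11.4, 10.0031 and 12.5 in M1 and at 2.95, 2.67 and 2.62 in M2. It was higher in M1 by a log2 fold change of 3.36 ± 0.13 (SE; edgeR adjusted p = 1.30e-10) and in M2 by 1.27 ± 0.15 (edgeR adjusted p = 1.50e-05). Osm was at 5.88, 6.02 and 6.27 in M0, at 12.5, 14.5 and 15.6 in M1 and at 4.37, 4.85 and 4.597 in M2. It was higher in M1 by 1.27 ± 0.10 (edgeR adjusted p = 1.50e-07), while its M2 difference of -0.46 ± 0.10 lay within the 2-fold limit. Il11 held 2 counts in M0, 29 in M1 and 9 in M2 and did not pass the filter on low counts.

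**Figure D5:**
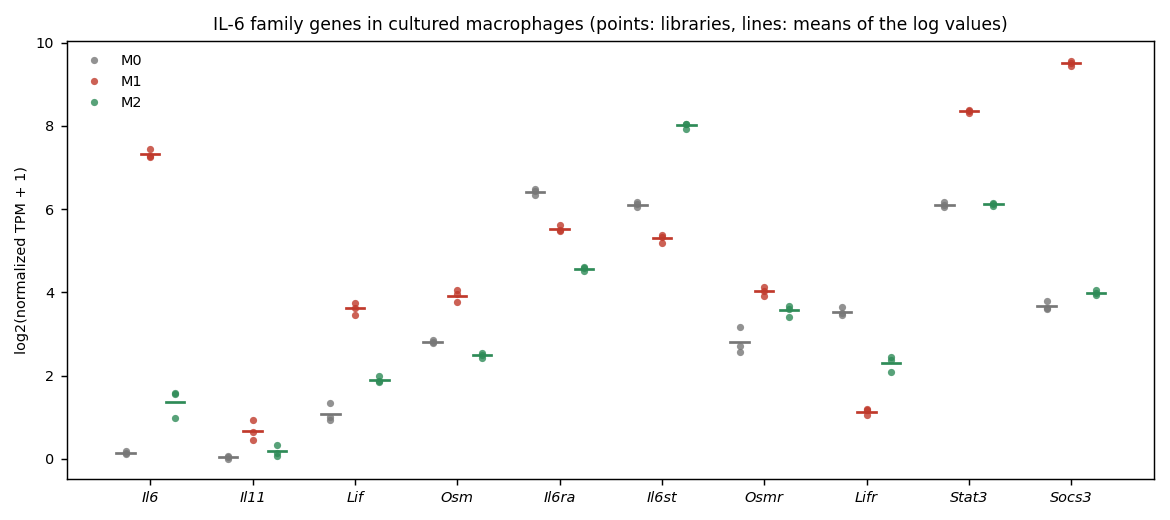
Level of the 10 genes as log2 of normalized TPM plus 1 (vertical axis) in macrophages, with 3 libraries for M0, for M1 and for M2. Points are libraries and lines are means of the log values. Il6, Stat3 and Socs3 stand highest in M1, Il6st in M2, and Il6ra and Lifr in M0.

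Il6st, the shared subunit, was higher in M2 than in M1 and M0, and Il6ra was highest in M0. Il6ra was at 85.3, 79.8 and 88.6 in M0, at 43.2, 48.3 and 44.0 in M1 and at 23.4, 21.7 and 23.0 in M2. Il6st was at 65.4, 70.6 and 68.2 in M0, at 39.5, 35.6 and 40.7 in M1 and at 244, 265 and 264 in M2. No state overlapped another in either gene. In M2, Il6ra fell by 1.98 ± 0.05 (SE) on the log2 scale (edgeR adjusted p = 2.53e-10) and Il6st rose by 1.85 ± 0.05 (edgeR adjusted p = 2.71e-10). In M1, Il6ra fell by 1.014 ± 0.05 (edgeR adjusted p = 1.71e-09), at the edge of the 2-fold limit: the call was lost by DESeq2, with other size factors and without M0 replicate 1 or 3 or M1 replicate 1 or 3. Il6st in M1 changed by -0.89 ± 0.05 and was not called for the same limit. Set directly against M2, M1 differed by -2.84 ± 0.06 in Il6st (edgeR adjusted p = 3.45e-14). The ratio of Il6st to Il6ra was 0.766 to 0.886 in M0, 0.737 to 0.926 in M1 and 10.4 to 12.2 in M2.

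Osmr was at 5.54, 8.06 and 4.89 in M0, at 14.2, 15.3 and 16.5 in M1 and at 9.67, 11.8 and 11.1 in M2, and rose in M1 by a log2 fold change of 1.37 ± 0.12 (SE; edgeR adjusted p = 4.43e-07). Lifr was at 9.90, 10.4 and 11.6 in M0, at 1.079, 1.25 and 1.28 in M1 and at 3.24, 4.44 and 4.20 in M2. It fell by 3.19 ± 0.10 in M1 (edgeR adjusted p = 2.34e-11) and by 1.49 ± 0.09 in M2 (edgeR adjusted p = 4.62e-08) on the log2 scale. The ratio of Osmr to Lifr was 0.422 to 0.773 in M0, 12.3 to 13.1 in M1 and 2.65 to 2.98 in M2.

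Stat3 was at 65.1, 68.1 and 70.5 in M0, at 327, 333 and 319 in M1 and at 70.2, 66.1 and 69.1 in M2. Socs3 was at 11.1, 11.3 and 12.8, at 758, 725 and 693 and at 14.3, 15.5 and 14.8 in the same order. Both rose in M1, by log2 fold changes of 2.28 ± 0.05 (SE; edgeR adjusted p = 9.17e-13) and 5.96 ± 0.07 (edgeR adjusted p = 1.02e-14). In M2 the changes were 0.03 ± 0.05 for Stat3 (edgeR adjusted p = 0.618) and 0.28 ± 0.08 for Socs3 (edgeR adjusted p = 0.00595), neither called.

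In all, 8 of the 9 members tested were called in M1 against M0 (6 higher and 2 lower), where 46.1% of all genes were called, and 5 in M2 against M0 (3 higher and 2 lower), where 22.3% were. M1 against M2, a direct test of the difference between the states, called 7 of 9, against 48% of all genes. Il6, Lif, Osm, Stat3 and Socs3 were higher in M1, and Il6st and Lifr were higher in M2. The median log2 fold change of the 9 members was 1.37 in M1 and 0.28 in M2 against M0, and over all genes tested -0.09 and -0.00. The M1 and M2 comparisons share the M0 libraries.

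A further 34 genes of the pathway were listed: 8 other ligands, 4 other receptors, 5 signal carriers, 5 other inhibitors and 12 target genes. In NR digits 4 of the 27 tested were called higher at 6 hours, and 8 of 26 higher and 1 lower at 12 hours. At 24 hours 8 of 27 were called higher and at 3 days 2 of 25. Of all genes tested, 4.85%, 11.4%, 10.7% and 0.723% were called in either direction at these times. None was called at 3 hours or at 7, 14 or 21 days, or in any intermediate comparison, where 0% to 1.68% of all genes were. The median log2 fold change of those tested was 0.51, 0.84 and 0.59 at 6, 12 and 24 hours. Over all genes tested it was -0.03, -0.03 and -0.04. The 3 with the largest change at 6 and 12 hours were Timp1, an inhibitor of matrix proteases, Bcl3, an IκB family regulator, and Clcf1, another gp130 ligand.

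Timp1 was at 7.58, 1.64 and 1.52 normalized TPM at 0 hours and at 132, 101 and 113 at 12 hours, a log2 fold change of 5.23 ± 0.54 (SE; edgeR adjusted p = 0.00113). Bcl3 was at 7.75, 7.41 and 5.73 at 0 hours and at 71.3, 76.1 and 69.7 at 12 hours, a log2 fold change of 3.70 ± 0.24 (edgeR adjusted p = 0.000231). Clcf1 was at 6.41, 3.63 and 1.93 and then at 47.1, 23.996 and 44.1, a log2 fold change of 3.19 ± 0.47 (edgeR adjusted p = 0.00449). At 24 hours Il4ra, the IL-4 receptor chain and a listed target, was the third by size after Timp1 (5.29 ± 0.58; edgeR adjusted p = 0.00119) and Bcl3 (3.38 ± 0.25; edgeR adjusted p = 0.000215), with a log2 fold change of 3.33 ± 0.17 (edgeR adjusted p = 5.45e-05), from 24.1 to 37.1 at 0 hours to 233 to 308 at 24 hours. Il4ra and Timp1 were also the 2 called at 3 days, at 1.86 ± 0.20 and 4.50 ± 0.63 on the log2 scale (edgeR adjusted p = 0.00571 and 0.0174). The F test over the NR times called 5 of 28 (Clcf1, Il11ra1, Bcl3, Timp1 and Il4ra), against 7.62% of all genes tested. That over the intermediate times called 4 of 28 (Bcl3, Timp1, Saa3 and Il4ra), against 6.21%. Il11ra1, the IL-11 receptor, has a close copy in the mouse genome, so its counts are uncertain.

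In macrophages 20 of 27 of these genes were called in M1 (18 higher, 2 lower), 18 of 28 in M2 (15 higher, 3 lower) and 20 of 28 between M1 and M2 (15 higher in M1, 5 lower), beside 46.1%, 22.3% and 48% of all genes tested. In M1 the largest were Saa3, an acute-phase protein, from 8.57 to 9.55 in M0 to 10061 to 10560, a log2 fold change of 10.11 ± 0.08 (SE; edgeR adjusted p = 1.72e-15), then Il27 (6.40 ± 0.15; edgeR adjusted p = 1.10e-12), a cytokine subunit, and Socs1 (6.30 ± 0.09; edgeR adjusted p = 3.05e-14), an inhibitor of JAK kinases. In M2 they were Il31ra, a receptor subunit, Socs1 (4.71 ± 0.15; edgeR adjusted p = 6.67e-10) and Cish (3.95 ± 0.11; edgeR adjusted p = 2.12e-10), an inhibitor of STAT5 signalling. Socs1 was at 1.71 to 2.19 in M0, 140 to 151 in M1 and 45.3 to 60.0 in M2. Il31ra held 4 counts in M0, 740 in M2 and 0 in M1. The ratio of count rates was 182 for M2 to M0 (95% counting interval 70.7 to 669), and against a floor of 3 counts per M1 library M2 was at least 72.4-fold higher than M1. Between M1 and M2, Saa3 (8.54 ± 0.11; edgeR adjusted p = 9.25e-16) and Ebi3 (4.03 ± 0.07; edgeR adjusted p = 3.57e-15), a partner of the Il27 product, followed.

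Across the 41 digits the members varied together to different degrees, given here as Spearman's rank correlation, a description over digits that share time courses and library scaling. The correlation was 0.803 between Il6 and Stat3, 0.791 between Stat3 and Socs3, 0.718 between Il6 and Socs3, 0.714 between Il6 and Osm and 0.668 between Il6 and Osmr. Without the 2 digits that stand apart, the correlation between Il6 and Socs3 was 0.883 over 39 digits. Lif and Osm, the neighbours on chromosome 11, had a correlation of 0.467, and Osmr and Lifr of -0.208. Il6ra was negative with each other member except Lifr, down to -0.534 with Osmr.

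Among all named genes with a mean of at least 1 normalized TPM, those with the most similar pattern to Il6 were Cxcl1, a neutrophil-attracting chemokine (rank correlation 0.913), Nfkbiz, an IκB family member (0.881), and Coq10b (0.845). For Socs3 they were Icam1, an adhesion molecule (0.932), and Sbno2 (0.832). For Osm they were Il1b, the interleukin-1β gene (0.844), Srgn (0.842) and the chemokine Ccl3 (0.839). For Lif they were Il19, a cytokine of the IL-10 family (0.817), the protease Mmp3 (0.739) and Crem (0.728), and for Il11 the protease Mmp1b (0.773), Sfxn1 (0.760) and Anxa2 (0.759). Cxcl1 went from a median of 16.2 at 0 hours to 905 at 12 hours in NR digits, Icam1 from 6.94 to 45.1 and Il1b from 3.49 to 668. Over the 29 NR digits alone, 7 of the genes named here were again among the 3 most similar.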

How the data were processed

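Poly A+ RNA of 41 digits and 9 macrophage cultures was sequenced single-end. The authors mapped reads to mouse genes (mm10) with Bowtie, allowing reads with several hits, and deposited expected counts per gene from RSEM 1.2.3. The second deposited unit was a signal, TPM that the authors had adjusted with median-by-ratio size factors separately for digits and macrophages, so levels were compared within each table only. Whether counting used strand is not given in the sources used here. Of the gene names, 26 that had become dates were restored.

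Expected counts were rounded. Groups were compared pairwise with edgeR 4.0.16 in R 4.3.3 (filterByExpr, TMM and the quasi-likelihood test with Benjamini-Hochberg adjustment over all genes tested). A gene was called at an adjusted p under 0.05 and a fold above 2 in mean normalized count plus 1. Time courses, group and interaction were tested by quasi-likelihood F tests at an adjusted p under 0.05. SE is the log2 fold change over the square root of F. DESeq2 1.42.0, other size factors, no filter, joint fits, a date period term and leaving out each replicate were alternatives. The study's own EBSeq test was not run. Tests were tried on simulated data first.

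The 10 members, 34 other pathway genes, markers and motifs were chosen with earlier results of these data known. All members are named in each comparison, other pathway genes by counts and the 3 called with the largest change, and similar genes by the 3 highest Spearman rank correlations among 13045 genes with a mean of at least 1 normalized TPM and no placeholder name, of which 1 is not reported here. Replicates of digits were separate digits. For macrophages nothing says that replicates were separate cultures of separate animals, so those p-values measure only the spread between libraries. Pairs of replicates differed by more than sampling noise in all 55 pairs. Total counts of 1468749 to 13011782 per digit put the floor of 3 counts at 0.231 to 2.04 CPM, and at 0.108 to 0.191 CPM in macrophages. Counting intervals cover counting error only.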

Additional observations from a re-analysis of the deposited data

How the results depend on the processing

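Of 47 called member comparisons, 33 held under every alternative run and 14 were lost under at least 1, and none of those with a direction reversed. Most losses were in NR digits against 0 hours: Il6 at 6 and 24 hours, Il11 and Osm at 12 and 24 hours, Osmr and Stat3 at 6 hours, and Socs3 at 6, 12 and 24 hours. There, Il6 at 12 hours and Lif, Osmr and Stat3 at 12 and 24 hours held throughout. The remaining losses were Il6 and Stat3 in the intermediate time course and Il6ra in M1 against M0. In NR digits against 0 hours, the number of members called at 3 hours was 0, and 2 with DESeq2, 1 without a low-count filter and 0 to 1 when each replicate was left out (1 without NR 0 hours replicate 1). At 6 hours it was 4, and 0 to 4 when each replicate was left out. At 12 hours it was 7, and 4 with all digits in 1 fit, with or without the date period, and 5 to 7 with replicates left out. At 24 hours it was 7, and 3 in the joint fit, 4 with the period, and 5 to 7 with replicates left out. In intermediate digits the count at 24 hours was 0, and 3 with DESeq2, 1 without a low-count filter and 0 to 1 with replicates left out (1, without 24 hours replicate 1 or replicate 2). At 21 days it was 0, and 0 to 2 with replicates left out. For the intermediate time course it was 3, and 5 with DESeq2 and 1 to 5 with replicates left out. M2 against M0 gave 5, and 8 without the fold threshold. The cause of these shifts was not tested, apart from the added calls without the fold threshold. Leaving out the 2 digits that stand apart or all 14-day digits was chosen after seeing the data, and gave 6 in the NR time course, as in the full set.

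Macrophage replicate numbers did not pair the libraries: deviations correlated by -0.123 to 0.144 for the same number and by -0.140 to 0.151 for different numbers. With the replicate number as a replicate block, 8, 5 and 7 members were called in M1 against M0, M2 against M0 and M1 against M2, the same counts as without it. Digits carry no shared replicate numbers. At 1468749 counts, NR 3 hours replicate 3 was the shallowest library, and Il11 and Osm could not be tested at that time.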
